A study of Oryza sativa with 12 samples.

Results

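Broad H2A.Z domains were defined as stretches of the rice genome of 4000 bp or more over which peaks of the histone variant H2A.Z joined. The H2A.Z peaks of 4 libraries were merged into 53017 regions, touching peaks being joined, and 38145 of these held a peak in each of the 4 libraries. Of those, 3013 were 4000 bp or longer, which is 7.90% of the regions and 22.9% of their bases (16.3 of 71.3 Mb). The domains were chosen by the length and extent of their H2A.Z peaks in these 4 libraries, so both are given as a description. The libraries came from 30-day-old seedlings of the wild type Nipponbare (NIP) and of the mutant oschz1, all grown on medium under long days, with 2 replicates per genotype. Chromatin was precipitated with antibodies against H2A.Z or against the core histone H3, and peaks were called against input DNA. The labels name the mutant only as oschz1, and the study's methods describe its profiled line as oschz1-1, 1 allele made with CRISPR/Cas9. The samples were whole seedlings, so a value is an average over all of their tissues.

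H2A.Z replaces the canonical histone H2A in a share of nucleosomes, where it is placed as a dimer with H2B by SWR1-type remodelling complexes. In plants it is best known at the nucleosomes that follow transcription start sites, and, as a wider layer over gene bodies, at genes that are weakly expressed or respond to the environment. OsChz1 is a rice histone chaperone that binds dimers of H2A or H2A.Z with H2B, and oschz1 plants carry a mutation in its gene. H3 is present in nearly all nucleosomes, and an H3 peak marks DNA recovered with nucleosomes above its input.

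The 4 H2A.Z libraries held between 16886473 and 22192417 reads in peaks, and the ranges of the genotypes overlapped. The 4 H3 libraries held 9179714 to 14466571 reads in peaks, and in both genotypes replicate 1 was the deeper. The H2A.Z and the H3 library of the same genotype and replicate shared their input. Values below are given in the order NIP replicate 1, NIP replicate 2, oschz1 replicate 1, oschz1 replicate 2. With 2 libraries per genotype an exact permutation test cannot go below p = 0.33, and with 4 paired libraries it cannot go below 0.13.

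Most domains lay close to the minimum length. The median length was 5000 bp, and the quartiles were 4400 and 6000 bp. A length of 6000 bp or more was found for 761 domains (25.3%), of 8000 bp or more for 218 (7.24%), of 10000 bp or more for 65 and of 12000 bp or more for 19. The 384 domains of 4000 bp, just inside the limit, had a median H2A.Z enrichment of 2.25 and a mean H3 peak cover of 26.8%. The 444 regions of 3800 bp, just outside it, had 2.24 and 26.3%. The limit thus cut through a continuous range of lengths. The 12 remaining merged regions of this size lacked a peak in at least 1 library.

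**Figure D1:**
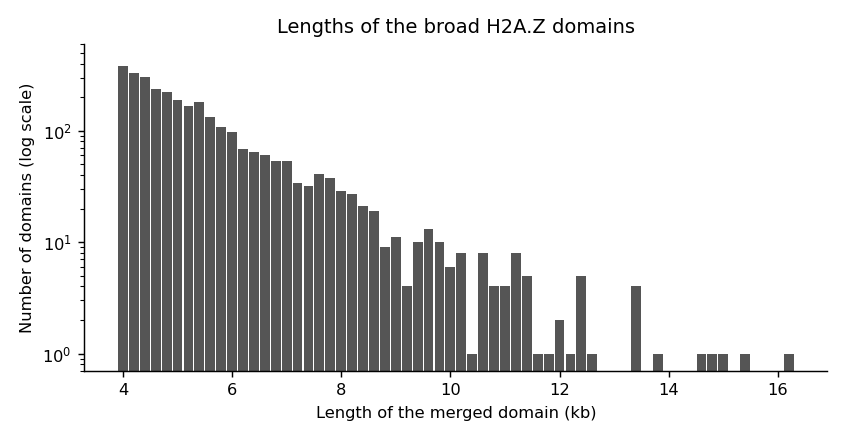
Number of domains (vertical axis, log scale) at each merged length in kb (horizontal axis). Counts fall from 384 domains at 4000 bp to single domains past 14 kb, with no separate group of long ones, and the longest measures 16200 bp.

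A domain was often a single peak in some libraries and several in others. A single peak of 4000 bp or more lay in 1589, 1455, 1849 and 1801 domains, and 906 domains (30.1%) had one in all 4 libraries. In 396 domains (13.1%) no library alone had a peak of that length, and the merged region reached it through peaks that overlapped between libraries. In 954 domains (31.7%) each of the 4 libraries had 1 peak, against 70.3% of the regions of 2000 to 3800 bp, which serve below as the nearest comparison (10333 regions). The 24799 regions under 2000 bp are called short regions.

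Domains were unevenly spread over the genome. All but 1, which lay on an unplaced sequence, were on the 12 chromosomes. Chromosomes 1 and 3 carried 541 and 468, or 12.5 and 12.9 per Mb up to the last peak, whereas chromosomes 11 and 12 carried 115 and 114, or 3.96 and 4.14 per Mb. The density of all regions found in the 4 libraries varied less, from 77.7 per Mb on chromosome 12 to 126 on chromosome 3. The share of regions that were domains was therefore 10.1%, 9.19%, 10.2% and 10.5% on chromosomes 1 to 4, and 4.64% and 5.33% on chromosomes 11 and 12.

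Along the chromosomes, domains were frequent towards both ends. With each chromosome split into 10 equal parts, the outer 4 held 58.2% of the domains, 52.8% of the regions of 2000 to 3800 bp and 46.7% of the short regions. Counted from the chromosome start, part 5 of 10 held the fewest domains, 67 (2.22%), and part 10 the most, 564 (18.7%). Short regions showed a shallower dip, with 6.56% in part 5 and 12.4% in part 10.

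**Figure D2:**
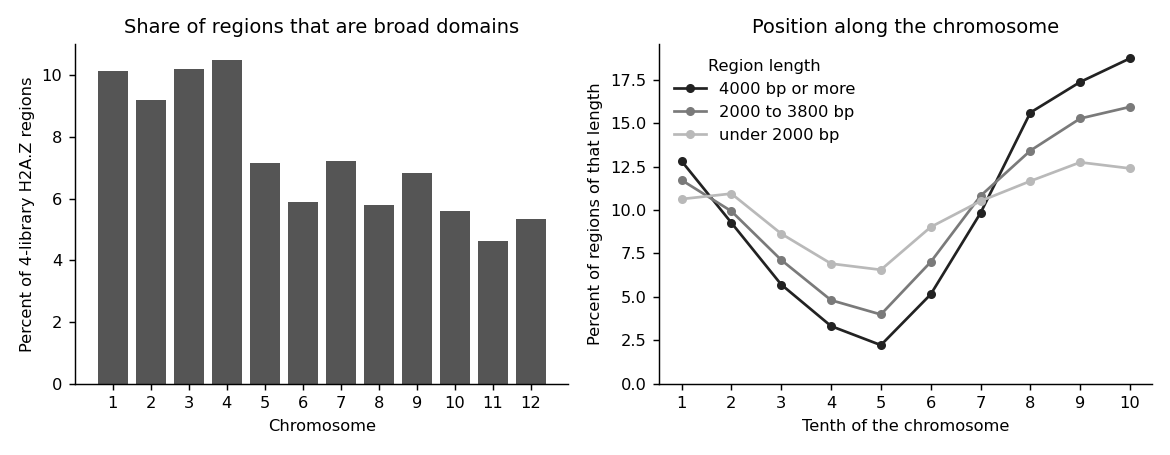
Left, percent of the H2A.Z regions with a peak in all 4 libraries that are domains (vertical axis), by chromosome. Right, percent of the regions of each length class (vertical axis) that lie in each of 10 equal parts of a chromosome from its start (horizontal axis), where the domains dip to 2.22% in part 5 and rise to 18.7% in part 10.

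Domains also lay near other domains. The median gap to the nearest other domain was 21.2 kb, against 30.6 kb from regions of 2000 to 3800 bp to their nearest domain and 41.6 kb from short regions. Another domain lay within 50 kb of 2239 domains (74.3%), and of 63.4% and 55.0% of the regions in those classes. For 309 domains (10.3%) the gap was at most 2 kb. Because density differs between chromosomes and along them, these gaps describe position and clustering together.

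The window of 100 kb with the most domains was on chromosome 6 (MSU7 build), where 8 domains between 28825201 and 28915400 took up 41000 bp. These neighbours were unlike each other in H3. The domain at chr6:28897801-28902200 was covered by H3 peaks over 100, 90.9, 81.8 and 81.8% of its length. The one at chr6:28825201-28830000 had H3 peaks over 0, 0, 20.8 and 20.8%. At chr6:28873801-28878400 an H3 peak covered 73.9% of the domain in 3 libraries and was absent from oschz1 replicate 1. A 100-kb window on chromosome 4 (33049401 to 33148200) held 7 domains, which took up 44.6% of it.

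The longest domain spanned chr8:26234801-26251000, or 16200 bp. Its H2A.Z peaks covered 13600, 14400, 16200 and 13200 bp, as 6, 4, 1 and 4 peaks, so that 1 library joined what the others split. Its H2A.Z enrichment, the ChIP reads over the input reads scaled for library size, was 2.16, 2.09, 1.92 and 2.02. H3 peaks covered 6.17% and 13.6% of it in NIP and were absent in both oschz1 libraries. The next in length were chr1:24067401-24082800 (15400 bp), chr12:520601-535600 (15000 bp), chr9:21598401-21613200 (14800 bp) and chr5:23627601-23642200 (14600 bp). Their mean H3 cover over the 4 libraries was 11.4, 24.7, 8.78 and 14.0%.

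One of the 10 longest stood apart in H3. At chr4:24086601-24100400 (13800 bp) H3 peaks covered 50.7, 56.5, 68.1 and 53.6% of the length, and H2A.Z enrichment was 2.86, 2.75, 2.42 and 2.47. The other 4 of the 10 were 13400 bp long and lay at chr1:1764801-1778200, chr2:27697801-27711200, chr3:26064001-26077400 and chr6:28372601-28386000. Mean H3 cover in these ranged from 9.70% on chromosome 6 to 36.2% on chromosome 3. None of the 10 passed the test for a change in H2A.Z reads described further on.

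The domains with the highest H2A.Z enrichment were short. At chr8:17649801-17654000 (4200 bp) it was 3.91, 4.30, 3.55 and 3.59, both oschz1 libraries being below both NIP libraries. At chr7:18688401-18692600 (4200 bp) it was 3.78, 3.42, 3.07 and 3.76, and the genotypes overlapped. At chr11:359001-363200 (4200 bp) it was 4.56, 3.69, 2.90 and 2.46. The lowest mean enrichments were 1.29 at chr2:838801-842800, 1.30 at chr5:29656601-29661400 and 1.33 at chr1:40756001-40760600. The last 2 of these had no H3 peak in any library.

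High H3 cover was found in domains that were also high in H2A.Z. The domain at chr7:18688401-18692600, which had the second highest H2A.Z enrichment, was covered by H3 peaks over 95.2, 90.5, 100 and 90.5% of its length. The other 4 domains with the highest H3 cover in their lowest library were chr5:4172401-4176400, chr4:1021601-1026400, chr10:15858001-15862000 and chr8:15642201-15646200. Their mean H3 cover was 92.5, 91.7, 87.5 and 92.5%, and their mean H2A.Z enrichment 2.82, 2.96, 2.67 and 2.96. Each was a single H2A.Z peak in every library.

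Within the domains, H2A.Z peaks extended further in oschz1. They covered 87.4 and 85.3% of the domain bases in NIP and 90.9 and 90.2% in oschz1, so both oschz1 libraries lay above both NIP libraries. The means were 86.3% ± 1.47 (SD, n = 2) and 90.5% ± 0.488 (SD, n = 2), a difference of 4.22 points, given without a test because peak extent chose the domains. Domains made of a single peak were 57.3 and 54.6% in NIP and 61.9 and 61.2% in oschz1, and there were 1.53 and 1.56 peaks per domain in NIP and 1.45 and 1.46 in oschz1. Domains covered whole by peaks made up 20.3, 16.0, 27.9 and 25.2%. Within each genotype the library with more reads in peaks covered more of the domains. NIP replicate 1 had the most reads in peaks and lay below both oschz1 libraries. The part of depth in the extent was not tested.

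The wider extent was not particular to the domains. Regions of 2000 to 3800 bp went from 83.8% to 88.1% covered, and short regions from 85.2% to 87.5%. Domain by domain, 661 (21.9%) had a covered length in each oschz1 library above that of each NIP library, and 186 (6.17%) had the opposite. Over all 38145 regions 11.3% were higher and 5.06% lower in this way, and among the regions of 2000 to 3800 bp 16.3% and 5.72%.

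**Figure D3:**
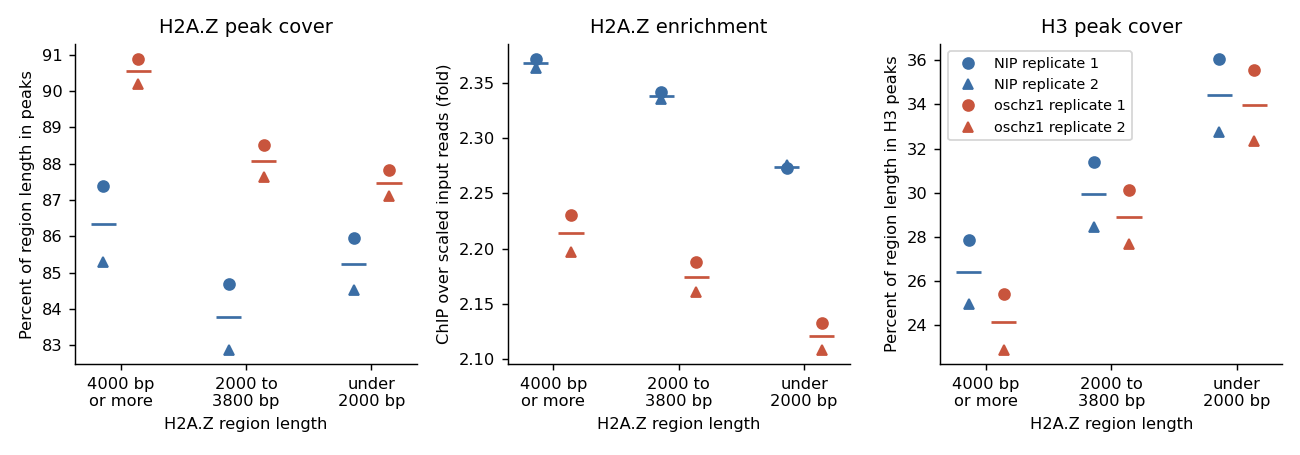
Each library's value in H2A.Z regions of 3 length classes, with NIP in blue, oschz1 in red, a circle for replicate 1, a triangle for replicate 2 and a bar for the mean. Left, percent of region length in H2A.Z peaks; middle, H2A.Z ChIP over scaled input reads; right, percent of region length in H3 peaks. In the domains oschz1 is higher in H2A.Z cover (90.5% against 86.3%) and lower in H2A.Z enrichment (2.21 against 2.37), and the H3 values overlap; the vertical axes do not start at 0.

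The domains were made of 81443 windows of 200 bp, the step of the peak caller. All 4 libraries covered 75.9% of the windows, 3 covered 9.12%, 2 covered 7.73% and 1 covered 7.22%. Both oschz1 libraries and no NIP library covered 2356 windows (2.89%), and both NIP libraries and no oschz1 library 638 (0.783%). The 4 mixed pairs of 1 NIP and 1 oschz1 library had between 656 and 1018 windows each. In the outer 1000 bp at either end of a domain the windows of oschz1 alone were 3.57% and those of NIP alone 1.08%. Further inside they were 2.49% and 0.610%.

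The H3 peaks followed the outline of the domains. At -100 bp, just outside a domain end, 3.97, 3.92, 3.98 and 3.45% of the ends lay under an H3 peak. At 900 bp inside, it was 31.4, 28.0, 29.1 and 26.4%, and at 1900 bp inside 28.2, 25.3, 25.7 and 23.2%. At position -3900 bp, outside the domain, it was 15.6, 13.9, 15.3 and 13.6%, so the flank next to the end was lower than DNA further away. H2A.Z peaks are absent just outside an end by the way domains were built, and covered 28.7, 27.5, 28.8 and 28.4% at -3900 bp. The part of this absence in the low H3 cover just outside the ends was not tested. At 100 bp inside, H2A.Z peaks covered 61.6 and 56.6% of the ends in NIP and 67.8 and 66.0% in oschz1.

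**Figure D4:**
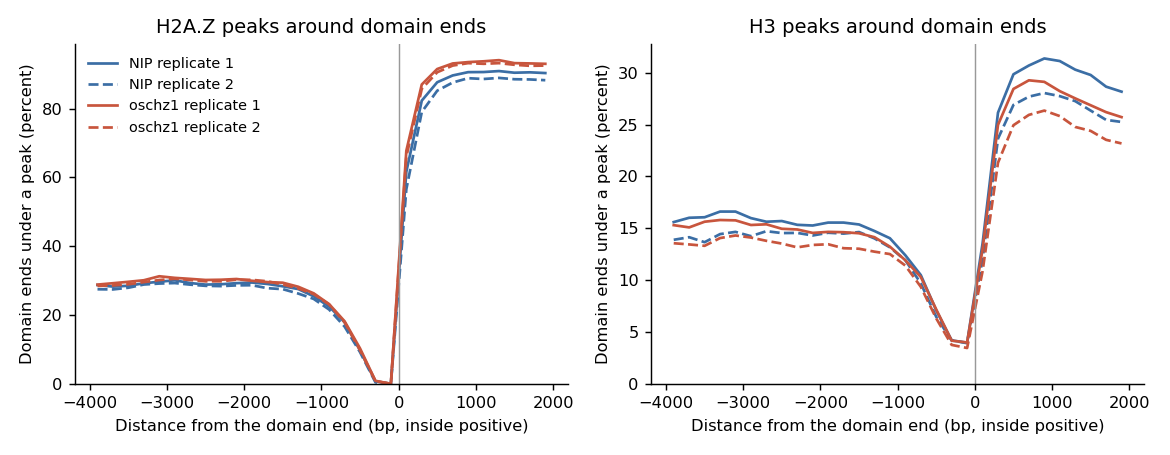
Percent of domain ends under an H2A.Z peak (left) or an H3 peak (right) against the distance from the end in bp, positive inside the domain, with NIP in blue, oschz1 in red, replicate 1 solid and replicate 2 dashed. H3 cover is lowest just outside the end (3.45 to 3.98%) and reaches 26.4 to 31.4% at 900 bp inside. The drop of H2A.Z to 0 outside follows from the way domains were built, and its part in the low H3 cover there was not tested.

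Although the peaks were wider, the enrichment of H2A.Z over input was lower in oschz1. Summed over the peaks of the domains it was 2.37 and 2.36 in NIP and 2.23 and 2.20 in oschz1, without overlap. The means were 2.37 ± 0.00623 and 2.21 ± 0.0236 (SD, n = 2 each), a difference of -6.49% (two-sided exact permutation p = 0.33, the smallest possible). ChIP reads per kb of peak were 343, 270, 300 and 281, input reads per kb 57.5, 47.4, 57.0 and 53.7, and RPM (reads per 1000000 reads in peaks) per kb 15.4, 16.0, 14.97 and 15.2. The share of all reads in peaks that fell in the domains was alike, at 22.0, 22.2, 22.2 and 22.3%, and the genotypes overlapped. The 103 domains that every library covered from end to end had an enrichment of 2.59 and 2.62 in NIP and 2.41 and 2.35 in oschz1. The difference was -8.56%. These 103 were picked by peak extent and were higher in enrichment than the domains as a whole. The part of extent in the lower enrichment was not tested.

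The lower enrichment was shared with the other H2A.Z regions. The difference was -7.01% in regions of 2000 to 3800 bp and -6.74% in short regions. The ratio of domains to regions of 2000 to 3800 bp was 1.012 ± 0.000607 (SD) for the 2 NIP libraries and 1.018 ± 0.00202 for the 2 oschz1 libraries (exact permutation p = 0.33, n = 2 each) and was slightly higher in both oschz1 libraries. On each of the 12 chromosomes the domains had a lower enrichment in oschz1, from -5.33% on chromosome 6 to -7.62% on chromosome 12. Enrichment did not overlap between genotypes and was lower in oschz1 in 1044 domains (34.6%) and higher in 213 (7.07%). The shares were 26.6% and 11% of all regions, and 29.5% and 9.37% of regions of 2000 to 3800 bp. Each domain was tested with limma on the log2 ratio of ChIP to scaled input, with a pseudocount of 0.5 read. At an adjusted p of 0.05, 0 domains passed. An unadjusted p under 0.05 was found for 19 with a lower (0.631%) and 3 with a higher ratio (0.0996%). Over all 38145 regions 0% passed the adjusted test, while 4.66% were lower and 1.73% higher in the unadjusted one. The shares of the domains were below these, so 0 calls do not show that single domains were unchanged. With the prior variance of limma trended on read number, a setting added after seeing the data, the unadjusted count was 293 lower (9.72%) and 17 higher (0.564%). Over all regions it was 6.2% and 1.3%, and again 0 domains passed the adjusted test. The median log2 ratio of oschz1 to NIP over the domains was -0.09, and the middle 90% of domains ranged from -0.34 to 0.17.

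Enrichment of single domains was only moderately repeatable. Over the 3013 domains its Pearson correlation was 0.655 between the NIP replicates and 0.648 between the oschz1 replicates. Between the genotypes it was 0.667 for replicate 1 and 0.623 for replicate 2. Length and mean enrichment were nearly unrelated over the domains (Pearson 0.04, Spearman 0.04). These correlations describe domains from the same 4 libraries and carry no test.

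H3 peaks took up less of the domains than of shorter H2A.Z regions. H3 was not used to choose the domains. The cover was 27.8, 24.9, 25.4 and 22.9% of the domain bases, against 31.4, 28.4, 30.1 and 27.6% in regions of 2000 to 3800 bp and 36.1, 32.8, 35.6 and 32.4% in short regions. In each of the 4 libraries the domains were lower than either class. The mean difference from regions of 2000 to 3800 bp was -4.15 points ± 0.699 (SD, n = 4 libraries; exact sign-flip permutation p = 0.13, the smallest possible), and from all shorter regions -6.57 points. Measured from its start to its last peak, a chromosome was on average covered at 15.4, 14.0, 14.99 and 13.5%, so the domains stayed above it.

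The lower share did not mean that domains lacked H3 peaks. An H3 peak lay in 77.0, 72.0, 73.3 and 69.8% of the domains, a mean of 73.0% against 60.2% of regions of 2000 to 3800 bp, a count that depends on the length of the regions. Domains with an H3 peak in all 4 H3 libraries numbered 1487 (49.4%, against 34.4% of regions of 2000 to 3800 bp), and 265 domains (8.80%, against 18.2%) had none in any. A mean H3 cover of 50% or more was found in 388 domains (12.9%), against 23.5% of regions of 2000 to 3800 bp, and a cover of 80% or more in 26. The median H3 peak inside a domain was 1000 bp wide in every library. Read enrichment in H3 peaks inside domains was 1.36 ± 0.0141 (SD, n = 4), and 1.41 ± 0.0190 in regions of 2000 to 3800 bp, lower in all 4 libraries (exact permutation p = 0.13).

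H3 cover fell with length between 1000 and 5800 bp and not below or above that range. Mean cover was 33.6% in regions of 200 to 800 bp, 34.4% at 1000 to 1800 bp, 30.6% at 2000 to 2800 bp, 27.5% at 3000 to 3800 bp, 26.1% at 4000 to 4800 bp and 24.4% at 5000 to 5800 bp. It was then 24.6% at 6000 to 7800 bp and 25.2% at 8000 bp or more. Over the domains alone, H3 cover and length were unrelated (Pearson -0.02, Spearman 0.00, n = 3013). By chromosome, mean H3 cover of the domains was highest on chromosome 1 (26.8%) and lowest on chromosomes 11 (20.4%) and 12 (19.9%), which also had the fewest domains per Mb.

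By genotype, H3 cover of the domains overlapped between libraries. In each genotype replicate 1 held more reads in peaks and had the higher cover. At the same replicate number oschz1 was lower, with 25.4% against 27.8% in NIP for replicate 1 and 22.9% against 24.9% for replicate 2. The part of depth in the overlap was not tested. The means were 26.4% ± 2.05 in NIP and 24.1% ± 1.78 in oschz1 (SD, n = 2 each; exact permutation p = 0.667), and oschz1 replicate 1 lay above NIP replicate 2. Taken relative to regions of 2000 to 3800 bp in the same library, the cover of the domains was 0.881 ± 0.00715 (SD) for NIP and 0.835 ± 0.0110 for oschz1, without overlap (exact permutation p = 0.33, the smallest possible). H3 cover was lower in both oschz1 libraries in 377 domains (12.5%) and higher in 290 (9.62%). Over all regions 7.04% were lower and 7.27% higher, and among regions of 2000 to 3800 bp 8.44% and 8.74%. A region without an H3 peak in any library cannot be counted either way. Such regions were 8.80% of the domains and 18.2% of the regions of 2000 to 3800 bp. By length, the genotypes overlapped in the domains of 4000 to 4800 bp (28.5 and 25.7% in NIP, 26.5 and 23.8% in oschz1), of 5000 to 5800 bp and of 6000 to 7800 bp. They did not in the 218 domains of 8000 bp or more, with 28.7 and 25.7% in NIP and 24.4 and 22.2% in oschz1, 1 of 4 length bins examined.

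H2A.Z and H3 were high in the same domains. H2A.Z enrichment correlated with mean H3 cover at Pearson 0.66 and Spearman 0.68 over 3013 domains. The H2A.Z and H3 values share their inputs, and H3 cover also correlated with input reads per kb (Pearson 0.65, Spearman 0.65); the part of the shared input in the relation was not tested. In the 265 domains without an H3 peak, H2A.Z enrichment was 1.89, 1.904, 1.87 and 1.87. In the 1487 domains with an H3 peak in all 4 H3 libraries it was 2.52, 2.51, 2.36 and 2.33. In the 388 domains with an H3 cover of 50% or more it was 2.75, 2.75, 2.55 and 2.52.

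The genotypes lay further apart in enrichment where H3 was present. The enrichment of oschz1 relative to NIP was -1.31% in domains without an H3 peak, -6.95% in domains with one in all 4 libraries and -7.88% at an H3 cover of 50% or more. The ratio of domains with an H3 peak in all 4 libraries to those with none was 1.33 ± 0.00872 (SD) for NIP and 1.25 ± 0.0142 for oschz1, without overlap (n = 2 each, exact permutation p = 0.33, the smallest possible). Regions of 2000 to 3800 bp showed the same order, with -2.58% where H3 was absent and -8.01% where it was in all 4 libraries. In extent the genotypes lay further apart where H3 was absent. H2A.Z peaks covered 78.8% of the domains without an H3 peak in NIP and 87.1% in oschz1, against 88.3% and 91.3% in the domains with one in all 4 libraries. Input reads per kb also differed between these sets, at 48.2 and 60.1 in NIP replicate 1. Enrichment was taken only within called peaks, so stretches that fell short of a peak did not enter it. The part of either in these differences was not tested.

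A small number of domains differed in H2A.Z reads, mostly domains that reached 4000 bp through the peaks of oschz1. In edgeR's quasi-likelihood test on the reads in peaks, adjusted over all 38145 regions with the Benjamini-Hochberg method, 68 domains were called higher in oschz1 (2.26%) and 1 lower (0.0332%) at an adjusted p of at most 0.05. Over all regions 0.731% were called higher and 0.076% lower. The reads tested lie in the peaks whose joined length chose the domains, so these shares and their direction follow in part from the choice and are given as a description. The peaks of oschz1 alone joined to 4000 bp or more, and those of NIP alone did not, in 777 domains (25.8%), which included 55 of the 68 called higher and the 1 called lower. The reverse held in 329 domains (10.9%), of which 0 were called. In the 1739 domains that reached this length in each genotype by itself, 10 were called higher (0.575%) and 0 lower. These 1739 were picked by peak length in each genotype, which limits how far reads in peaks can differ. Their share beside that of all regions is therefore a description. The other 3 calls were among 168 domains that neither genotype reached by itself. Domains held a median of 1315 reads per library, against 344.75 for all regions, and this difference in counts was not removed from the comparison of shares.

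The calls followed the extent of the peaks. Of the 68 domains called higher, 66 (97.1%) had a longer covered length in each oschz1 library than in either NIP library. Their median covered share was 54.8% in NIP and 94.3% in oschz1. The median log2 change was 0.73 in reads and 0.78 in covered length, and the fitted changes in reads ranged from 0.29 to 2.99. The median log2 change in enrichment was -0.01, with 33 domains up and 35 down. With the covered length as an offset in the edgeR fit, 0 domains were called, and at an unadjusted p under 0.05 the fit had 330 lower and 56 higher, against 8.01% lower and 1.97% higher of all regions. The reads in these tables are only those within called peaks, so a stretch that falls short of a peak in 1 genotype counts as 0 there. Reads and covered length are thus tied by the way reads were counted, and their relation is a description.

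**Figure D5:**
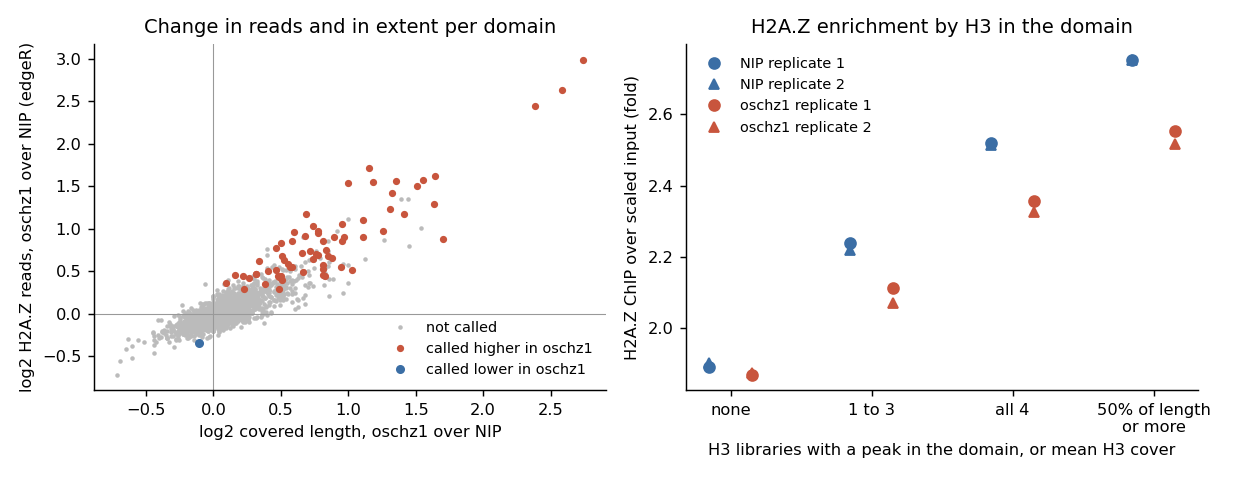
Left, each domain's log2 change (oschz1 over NIP) in H2A.Z reads by edgeR against its log2 change in covered length, with the 68 domains called higher in red and the 1 called lower in blue. Right, H2A.Z enrichment over input by library in domains with no H3 peak, with an H3 peak in 1 to 3 or all 4 H3 libraries, or with H3 cover of 50% or more. Both oschz1 libraries lie below both NIP libraries in every set, closely at 1.87 to 1.904 without H3 and further apart at 2.52 to 2.75 with the most H3.

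The 5 domains with the largest fitted rise had NIP peaks that joined to 600 to 1600 bp at most and reached 4000 bp through the oschz1 peaks, so their values are a description with no p. The largest rise was at chr2:35497201-35501400 (4200 bp). Peaks covered 600 and 600 bp of it in NIP and 4000 and 4000 bp in oschz1, with 5.23, 5.74, 43.5 and 43.2 RPM. The log2 change fitted by edgeR was 2.99 (SE 0.11), while enrichment was 1.49, 2.52, 1.80 and 1.99 and overlapped between genotypes.

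At chr6:7196401-7202600 (6200 bp) the covered length went from 1000 and 1000 bp to 6200 and 5800 bp. RPM values were 11.3, 11.3, 65.7 and 74.3, which fitted to 2.63 on the log2 scale (SE 0.09). Here enrichment was 1.53 and 1.59 in NIP and higher in oschz1, at 2.07 and 2.09. The limma test called 0 domains, so this domain was not called either.

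At chr1:28734201-28739200 (5000 bp) peaks covered 600, 1200, 4800 and 4600 bp. RPM values were 5.77, 13.1, 49.3 and 50.7, which fitted to 2.44 on the log2 scale (SE 0.28). It was 3.12 without NIP replicate 2 and 1.93 without NIP replicate 1. Enrichment was 2.12 and 1.81 in NIP and lower in oschz1, at 1.31 and 1.57. These first 3 domains had little H3: its mean cover was 2.38, 6.45 and 0%.

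At chr8:11024201-11028200 (4000 bp) peaks covered 1600, 2000, 4000 and 4000 bp, and H3 peaks covered 2800, 3000, 2800 and 2200 bp. RPM values were 19.7, 23.0, 69.7 and 69.4, which fitted to 1.71 on the log2 scale (SE 0.08). H3 peaks thus spanned most of this domain in the genotype in which H2A.Z peaks did not.

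At chr11:5024401-5029600 (5200 bp) both H2A.Z and H3 peaks were longer in oschz1. H2A.Z peaks covered 1800, 1400, 4800 and 5200 bp, and H3 peaks 200, 0, 2000 and 1800 bp. RPM values were 23.9, 24.3, 70.7 and 77.9, which fitted to 1.62 on the log2 scale (SE 0.07). Among all 68 domains called higher, H3 cover was higher in both oschz1 libraries in 2 and lower in both in 11. Of all domains 9.62% were higher and 12.5% lower, and of all regions 7.27% and 7.04%. The 68 were not tested against these shares.

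The 1 domain called lower lay at chr2:4421201-4426600 (5400 bp), with 84.9, 82.5, 67.9 and 63.8 RPM. The log2 change was -0.35 (SE 0.05). Its NIP peaks joined to 3200 bp at most and its oschz1 peaks to 4400 bp, so this value too is a description with no p. Its covered length of 3600, 4600, 4400 and 3200 bp overlapped between genotypes, as did its enrichment of 3.05, 2.32, 2.38 and 2.19. Leaving out any 1 of the 4 libraries ended this call, with log2 changes of -0.39 to -0.30.

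A peak of 4000 bp or more was present in both oschz1 libraries and in neither NIP library in 176 domains (5.84%). The opposite held in 58 domains (1.92%). These counts restate the wider peaks of oschz1 at the scale of whole domains and were not tested, since peak length chose the domains.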

How the data were processed

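H2A.Z and H3 ChIP-seq and input of 30-day-old NIP and oschz1 seedlings comprised 12 samples, 2 replicates each. The study states that paired reads were mapped with Bowtie2, that reads with a mapping quality under 20 and potential PCR duplicates were removed with SAMtools, and that H2A.Z peaks were called per library with SICER (window 200, gap 200, FDR 0.05). The H3 caller is not given in the sources used here, but its tables have the same layout. Coordinates are on the MSU7 build and are printed from 1.

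The deposited tables hold, per peak, counts of ChIP and input reads, a p-value, a fold over input and a q-value, all made by the authors' caller. The deposited fold was found to be the ratio of ChIP to input counts divided by 1 constant per library. That constant scaled the input for the enrichment values. Reads outside peaks were not analysed here.

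H2A.Z peaks were merged as described in the report. The members and lists were chosen with earlier results of these data known. Regions named are the 10 longest domains, the 3 highest and 3 lowest in enrichment, the 5 with the highest H3 cover in their lowest library, the 5 largest rises and falls called with non-overlapping genotypes, and the densest window of 100 kb. Reads were tested with edgeR 4.0.16 (reads in peaks as library size, genotype only) and enrichment with limma 3.58.1, both over 38145 regions. Both were run on simulated counts, with recovery required of edgeR only and at a change larger than most fitted here. That run does not show how well limma finds small changes. For values over libraries, exact permutation tests (two-sided) were used. The study describes 2 biological replicates per genotype, and p-values measure the spread between these samples. Genes and sequences at the domains were not analysed here, since no annotation of this build was used. Alternatives were a q-value of at most 1e-10, a fold of at least 2, peaks up to 600 bp apart joined, a minimum of 6000 bp, other library sizes, DESeq2 1.42.0, at least 50 reads, an offset for covered length, a replicate block, a pseudocount of 5, each replicate left out and, chosen after seeing the data, a trended prior variance in limma.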

Additional observations from a re-analysis of the deposited data

How the results depend on the processing

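The wider extent and lower enrichment of H2A.Z in oschz1, and the lower H3 cover of the domains than of shorter regions, kept their direction under every alternative run. Leaving out each replicate in turn gave differences of 3.18 to 5.26 points in covered share, -0.170 to -0.137 in enrichment, -4.36 to -3.94 points in H3 cover against shorter regions and -3.70 to -0.802 points in H3 cover between genotypes. H3 cover between genotypes turned to a difference of 0.157 points when peaks under a fold of 2 were dropped, and the cause was not tested.

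The number of domains depends on their definition: 1723 with a fold of at least 2, 5367 with peaks up to 600 bp apart joined, 761 with a minimum of 6000 bp, and 2628 to 2842 without 1 library. Domains called higher and lower in reads numbered 76 and 0 with TMM factors, against 294 and 22 of all 38145 regions. With DESeq2 they were 159 and 9 (710 and 118 of all regions). With the recovered size of the whole libraries they were 50 and 2 (203 and 27). At a q-value of at most 1e-10 they were 45 and 1 of 2902 domains (109 and 6 of 25410 regions). At a fold of at least 2 they were 15 and 7 (39 and 11 of 12974). With peaks joined they were 103 and 3 (256 and 27 of 32505). At 6000 bp or more they were 19 and 0 (279 and 29 of 38145). With covered length as an offset 0 and 0 were called, as over all regions, and the change at chr11:5024401 turned to -0.028. A fit without 1 library leaves 1 library in a genotype, so only its effect is given. The median log2 change in reads over the domains was then -0.013 (without NIP replicate 1) to 0.0021 (without NIP replicate 2). The call at chr2:4421201 was lost with TMM factors and with the offset. The limma test called 0 domains, and 0 of all regions, in all its alternatives.

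The replicate numbers did not pair the H2A.Z libraries: the deviations of same-numbered libraries correlated at 0.01 over the domains. In H3, replicate 1 had the higher cover of the domains in both genotypes, and a pairing of the H3 libraries was not tested. With the replicate block 57 domains were called higher and 1 lower, against 216 and 15 of all 38145 regions.

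The tables hold reads within peaks, so depth limits what can be said of stretches below the caller's threshold, where a library contributes 0. The overlap of the domains with genes, and its alternative of a share of 50 percent of the gene, was not run.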
